A study of Mus musculus with 14 samples.

Results

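DNA methylation at cytokine, chemokine and innate immune genes was measured by reduced representation bisulfite sequencing (RRBS) in the mammary adipose tissue of 14 female C57BL/6NCrl mice. The members are the measured CpG sites whose nearest gene, as assigned in the deposited table, has a symbol that begins with Ccl, Ccr, Cxcl, Cxcr, Il, Irf, Tlr or Nlrp and a digit, or with Tnf, Ifn or Csf and a digit. This rule gave 490 of 75761 sites and 67 of 12627 gene symbols. Symbols alone decided membership, so Irf2bp1, Irf2bp2, Irf2bpl, Il4i1 and the Tnfaip genes are included although none of them encodes a cytokine or a cytokine receptor. Of the 490 sites, 449 at 65 genes had a standard deviation across mice of 0.05 or more and were tested. Ifnar2 and Il10ra had no tested site.

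The mice were bought at 8 weeks of age and acclimatized for 1 week. CON-LFD mice (n = 3) ate a low-fat diet with 10% of its energy from fat throughout, and the other mice ate a high-fat diet with 60% for 15 weeks. DIO-HFD mice (n = 4) then stayed on the high-fat diet, DIO-LFD mice (n = 3) were switched to the low-fat diet, and DIO-VSG mice (n = 4) had a vertical sleeve gastrectomy and ate the low-fat diet. The groups without gastrectomy had sham surgery. All 14 mice were wild type and received E0771 mammary cancer cells in a mammary fat pad 7 weeks after surgery, so every group, CON-LFD included, carried a tumor. The tissue was taken from the opposite side 4 weeks later; the labels name E0771 as the cell line, while the tissue entry is normal contralateral mammary tissue. It is a whole tissue of adipocytes, immune, stromal and epithelial cells, and a changed share of these cells cannot be told apart from a changed methylation level within one of them. Gastrectomy was always combined with the diet switch, and the comparison of DIO-VSG with DIO-LFD mice is the one that differs by the operation.

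Cytokines and chemokines are secreted proteins through which immune and tissue cells instruct each other. Receptors of many interleukins, interferons and colony-stimulating factors signal through JAK-STAT, and chemokine receptors are coupled to G proteins. Receptors of the IL-1, IL-17, TNF and Toll-like families act to a large extent through NF-kB, and some Nlrp sensors form inflammasomes. Obese adipose tissue is known for macrophage accumulation and for raised TNF and other inflammatory mediators. Methylation of CpG sites at promoters is commonly associated with low transcription, while methylation within gene bodies has no such simple relation. Expression was not analysed here.

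RRBS reads the ends of fragments cut by MspI at CCGG, and its coverage of these genes was uneven. Of 50 genes listed for their known part in inflamed adipose tissue, 14 had a site and 13 a tested one. Il6, Il1b, Il10, Ccl2, Ccr2, Tlr4, Nlrp3, Csf1r and Ifng are among the 36 without a site, so nothing is reported on them. The 11 genes with 10 or more sites held 309 of the 490 sites, and 34 genes had only 1 or 2 sites. By the GENCODE annotation of GRCm38, 345 sites at 44 genes lay within the named gene, 176 of them in a coding exon. Another 35 sites at 11 genes lay only within a different coding gene, and 110 in neither. For 23 genes no site lay in the gene itself: the Ccr1 sites were 41517 to 44720 bp from the transcript start, and the Tnf sites just past the gene's end. Sites farther than 10 kb from the assigned transcript start made up 18.6% of the member sites and 37.2% of all sites. CpG islands held 42.0% of the member sites and 23.8% of all sites, and exons 47.1% and 29.7%.

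A share of the sites lay within the cut sequence itself, 30% of the member sites and 32.7% of all sites. Of the member sites within CCGG, 36.7% had a mean level between 40% and 60%, against 21.3% of those outside it, and over all sites the shares were 36.3% and 15.3%. Single sites of this kind are marked where their values are given, since the part of the enzyme in their level was not tested. Means over a gene or a block can include such sites, which were 34 of the 249 sites in the blocks described below. No read counts accompany the levels, and the depth of each measurement is unknown.

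One mouse stood apart before any gene was considered. DIO-HFD replicate 1 had a mean level over the tested member sites of 60.4%, while replicates 2, 3 and 4 had 48.0%, 50.1% and 49.6%. Over all 65610 tested sites the same mice had 66.2%, 57.2%, 57.6% and 57.6%. Comparisons with DIO-HFD mice are therefore given with all 4 mice, which is the main result, and without replicate 1. Replicate 1 was singled out after its levels were seen, and tests without it speak only for the mice that remain.

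The mean level over the member sites was 55.6% ± 3.22 (SD, n = 3) in CON-LFD, 52.0% ± 5.66 (SD, n = 4) in DIO-HFD, 55.5% ± 2.82 (SD, n = 3) in DIO-LFD and 57.5% ± 0.961 (SD, n = 4) in DIO-VSG mice. The 4 DIO-VSG mice lay close together, between 56.04% and 58.2%. The CON-LFD mice had 58.1%, 56.7% and 52.0%, and the DIO-LFD mice 58.6%, 53.0% and 54.9%. All 10 mice of these 3 groups were above DIO-HFD replicates 2, 3 and 4 and below replicate 1. Over all tested sites the mean was 63% in CON-LFD, 59.7% in DIO-HFD, 63.1% in DIO-LFD and 64.6% in DIO-VSG mice. As for the member sites, the DIO-HFD mean was the lowest and the DIO-VSG mean the highest.

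**Figure D1:**
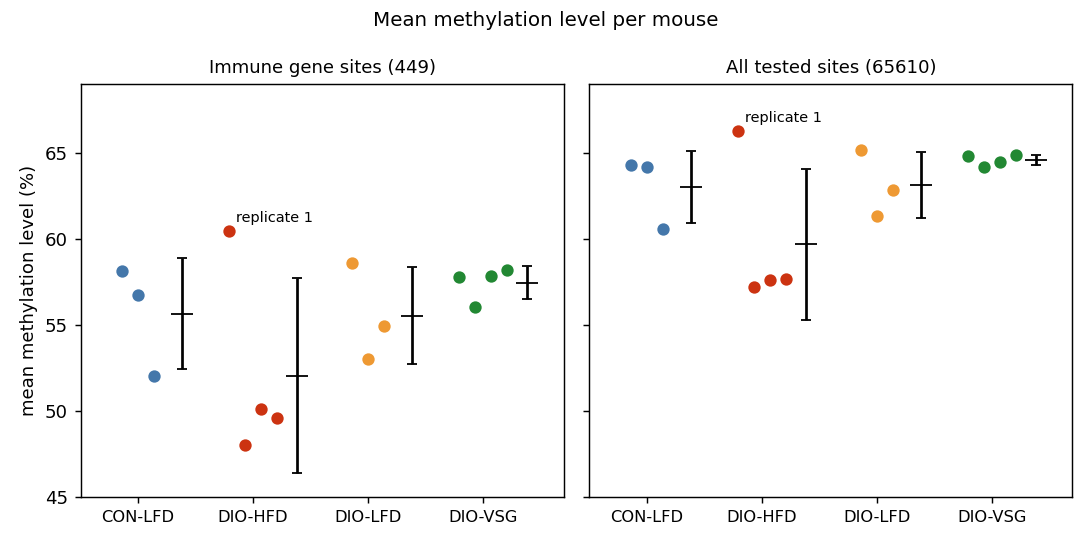
Mean methylation level (%) of each mouse by group, over the 449 tested immune gene sites (left) and the 65610 tested sites (right); points are mice, bars show the group mean ± SD. DIO-HFD replicate 1, at 60.4% and 66.2%, is the highest mouse in both panels, and the other DIO-HFD mice are the lowest.

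Sequences are shown for the stretches on which the results turn. They are groups of neighbouring CpGs from the blocks described below, and a few single sites near genes known from obese tissue. All are from the RefSeq assembly GRCm38 (the mm10 build of the table), plus strand, 5′ to 3′, and capitals mark the tested CpGs. Of the 10 stretches, the Irf2bpl, Csf2ra and Il11 stretches belong to genes on the minus strand.

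Irf2bpl, coding exon, chr12:86882194-86882299: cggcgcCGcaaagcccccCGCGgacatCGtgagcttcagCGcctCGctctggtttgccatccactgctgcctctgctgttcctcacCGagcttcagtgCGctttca

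Tnfaip2, coding exon in a CpG island, chr12:111445772-111445892: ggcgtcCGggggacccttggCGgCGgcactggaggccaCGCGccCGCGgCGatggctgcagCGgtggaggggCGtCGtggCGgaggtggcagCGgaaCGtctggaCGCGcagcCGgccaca

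Tnfaip2, later exon and intron, chr12:111450794-111450976: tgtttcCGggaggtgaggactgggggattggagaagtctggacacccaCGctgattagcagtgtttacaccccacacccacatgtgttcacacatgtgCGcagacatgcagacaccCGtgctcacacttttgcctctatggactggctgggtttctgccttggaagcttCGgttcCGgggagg

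Il12rb1, upstream, chr8:70805888-70806001: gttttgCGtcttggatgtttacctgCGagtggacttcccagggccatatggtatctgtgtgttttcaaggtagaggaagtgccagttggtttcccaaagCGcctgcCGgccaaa

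Il12rb1, exon and intron, chr8:70816700-70816901: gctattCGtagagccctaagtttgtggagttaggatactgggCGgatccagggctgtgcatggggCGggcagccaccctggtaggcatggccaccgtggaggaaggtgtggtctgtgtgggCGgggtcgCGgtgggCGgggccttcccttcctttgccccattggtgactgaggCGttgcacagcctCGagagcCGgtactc

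Csf2ra, exon and intron in a CpG island, chr19:61225280-61225399: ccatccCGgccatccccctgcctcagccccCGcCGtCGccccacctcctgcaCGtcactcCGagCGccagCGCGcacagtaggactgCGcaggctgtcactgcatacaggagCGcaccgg

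Nlrp6, coding exon, chr7:140921845-140921909: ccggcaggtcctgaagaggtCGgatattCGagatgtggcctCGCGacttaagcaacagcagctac

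Il11, near the transcript start, chr7:4778270-4778298: gcCGgctgcctagcagggctcacacCGcc

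Tnfrsf1a, intron, chr6:125360343-125360404: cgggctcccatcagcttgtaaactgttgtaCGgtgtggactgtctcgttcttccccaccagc

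Irf8, intron, chr8:120736888-120736949: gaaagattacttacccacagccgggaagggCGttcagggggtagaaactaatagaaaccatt

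The stretches differ in composition. The Tnfaip2 island stretch was 77.7% G and C with 17 tested CpGs in 121 bases, and the Csf2ra stretch 71.7% with 11 in 120. The upstream Il12rb1 stretch was 51.8% with 4 tested CpGs in 114 bases.

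The comparison of each group with DIO-HFD mice asks whether a lean diet, weight loss by diet, or weight loss by surgery was accompanied by a different methylation level. By limma with Benjamini-Hochberg adjustment over all 65610 tested sites, 0 member sites had an adjusted p under 0.05 in any of these comparisons. Calls over all sites came to 0% (CON-LFD), 0.00305% (DIO-LFD) and 0.00305% (DIO-VSG). The smallest adjusted p of a member site was 0.611, 0.494 and 0.15, respectively. With all 4 DIO-HFD mice, therefore, no difference below is past the threshold, and each is given as a value.

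At an unadjusted p under 0.05, the CON-LFD comparison held 33 member sites above the DIO-HFD level and 16 below it. These were 7.35% and 3.563% of the tested member sites, against 6% and 1.76% of all tested sites, and the 16 lower sites belonged to 5 genes. The DIO-LFD comparison held 29 higher and 15 lower, 6.46% and 3.34%, against 7.92% and 2.16%. The DIO-VSG comparison held 105 higher and 29 lower, 23.4% and 6.46%, against 20.2% and 4.85%. The median difference of the member sites was 4.10, 4.44 and 5.47 percentage points, close to the 3.721, 3.814 and 5.40 of all tested sites. Without DIO-HFD replicate 1 it was 7.32, 7.42 and 8.06, against 5.92, 6.04 and 7.47. The share of lower sites was above that of all sites in each comparison, while that of higher sites was above it for CON-LFD and DIO-VSG and below it for DIO-LFD. Single genes weighed heavily here. Tnfaip2 alone held 11 of the 16, 9 of the 15 and 15 of the 29 lower sites. Irf2bpl alone held 12 of the 33, 8 of the 29 and 31 of the 105 higher sites. Neighbouring CpGs of 1 gene are not independent, so these shares are not read as a trait of the immune genes as a set. Centring each mouse on its own median level moves all sites by the same amount, -4.74, -4.78 and -7.69 percentage points. The medians then were -0.65, -0.35 and -2.22 for the member sites and -1.02, -0.97 and -2.30 for all tested sites.

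Without DIO-HFD replicate 1, many sites passed an adjusted p of 0.05. Of the member sites, 68 were higher and 18 lower in CON-LFD mice, or 15.1% and 4.01%, against 9.67% and 2.3% of all sites. In DIO-LFD mice 74 were higher and 19 lower, or 16.5% and 4.23%, against 12.1% and 2.42%. In DIO-VSG mice 155 were higher and 34 lower, or 34.5% and 7.57%, against 28.8% and 5.62% of all sites. These 34 lower sites belonged to 8 genes, and 13 of them were at Tnfaip2. Irf2bpl held 27 of the 68, 26 of the 74 and 31 of the 155 higher sites.

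**Figure D2:**
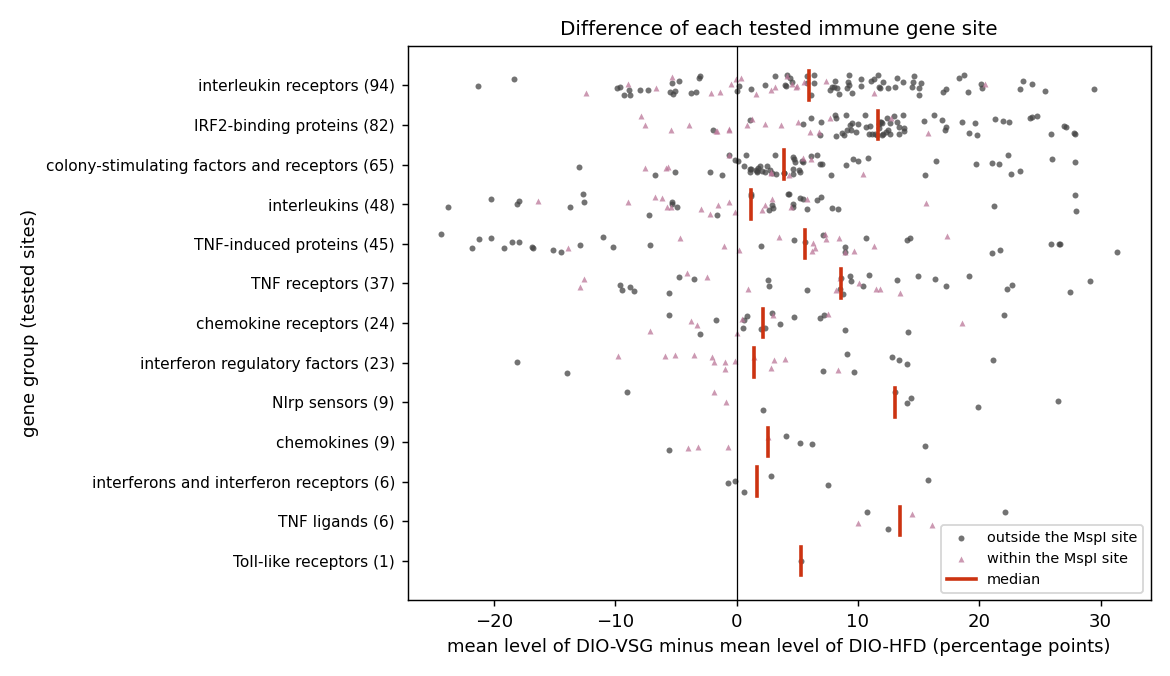
Difference of the mean level between DIO-VSG and DIO-HFD mice (percentage points) at each of the 449 tested sites, by gene group; circles lie outside and triangles within the MspI cut sequence, and red bars are group medians. All 13 groups have a median above 0, and the sites below -20 belong to the TNF-induced proteins, interleukins and interleukin receptors.

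Runs of at least 4 tested sites of 1 gene with gaps of at most 100 bp were also averaged into blocks. This was chosen after seeing the data. There were 27 member blocks at 16 genes, with 249 sites, among 3863 blocks in all. With all mice, 0 blocks passed an adjusted p of 0.05 in the comparisons with DIO-HFD, for members and for all blocks (0%). The smallest adjusted p of a member block was 0.448, 0.385 and 0.0774 for CON-LFD, DIO-LFD and DIO-VSG. Without DIO-HFD replicate 1, 11 member blocks were higher and 3 lower in CON-LFD mice, where all blocks gave 35.3% and 8.34%. In DIO-LFD mice 10 were higher and 3 lower (36.7% and 7.74% of all blocks), and in DIO-VSG mice 15 were higher and 3 lower (52.5% and 11.6%).

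**Figure D3:**
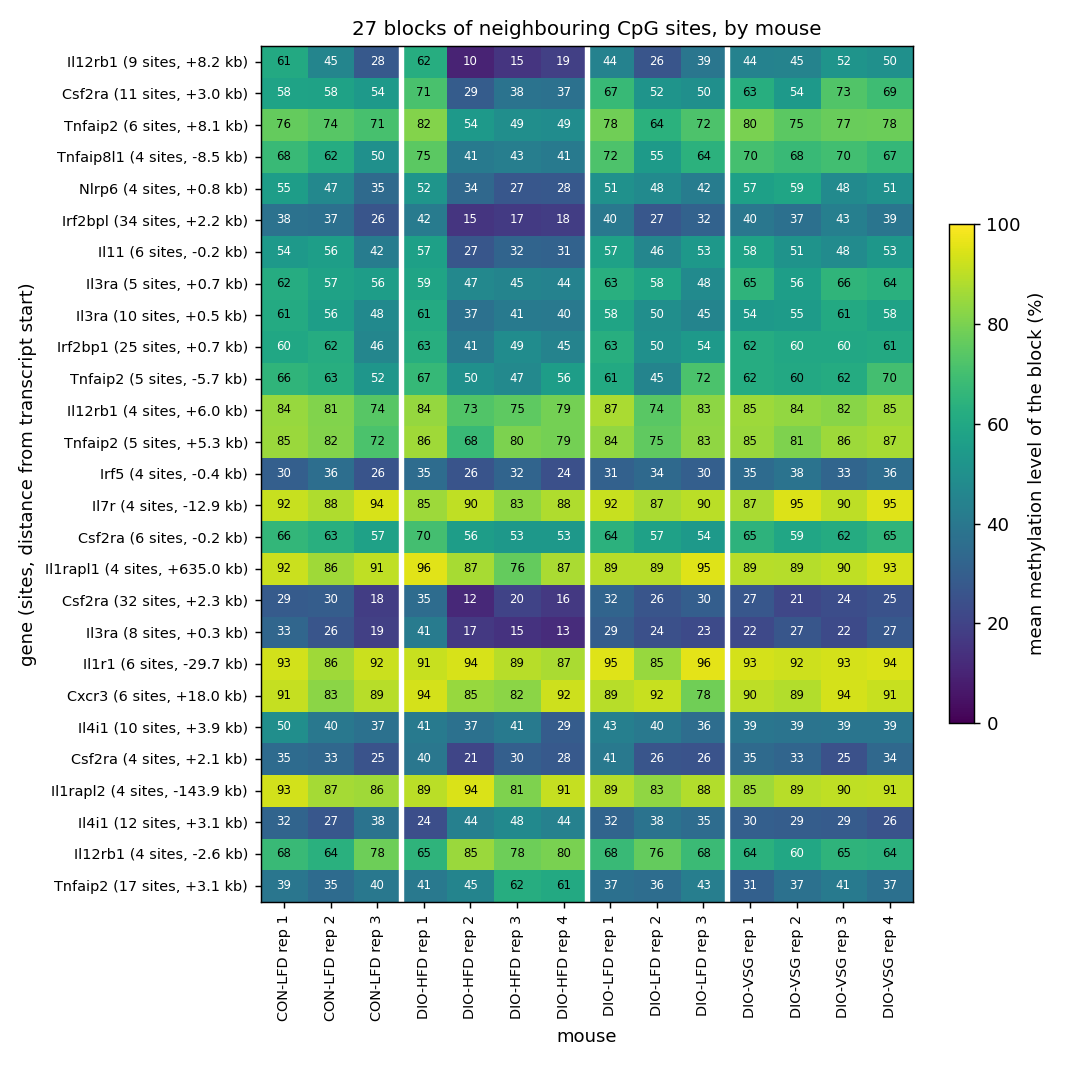
Mean methylation level (%) of the 27 member blocks in each of the 14 mice, ordered by the DIO-VSG minus DIO-HFD difference, with the number of sites and the distance from the transcript start. DIO-HFD replicates 2, 3 and 4 are darker than the other mice in the upper rows and brighter in the Il4i1, Il12rb1 and Tnfaip2 rows at the bottom.

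The IRF2-binding proteins, nuclear partners of the interferon regulatory factor IRF2, gave the most sites: 41 of 82 tested sites (50%) were higher in DIO-VSG mice at an unadjusted p under 0.05 and 0 were lower, where 20.2% and 4.85% of all tested sites were. Their median difference was 11.6 percentage points. Of the 41 sites, 31 were at Irf2bpl, 10 at Irf2bp1 and 0 at Irf2bp2. Most are neighbouring CpGs of the Irf2bpl and Irf2bp1 blocks, read in the same mice, and are not separate results. The Irf2bpl block covered 34 CpGs of the coding exon, all in a CpG island, and part of it is printed above. Its mean level was 37.9%, 36.9% and 26.5% in CON-LFD, 41.6%, 15.3%, 16.8% and 18.3% in DIO-HFD, 40.1%, 27.3% and 31.6% in DIO-LFD and 39.8%, 36.7%, 43.0% and 39.0% in DIO-VSG mice. DIO-HFD replicates 2, 3 and 4 were below every other mouse, and replicate 1 was among the highest. The DIO-VSG minus DIO-HFD difference was 16.6 percentage points (M, the log2 ratio of methylated to unmethylated level, 1.56 ± 0.46 SE, limma adjusted p = 0.0774). Without replicate 1 it was 22.8 (limma adjusted p = 0.000177), and the CON-LFD and DIO-LFD differences were 16.9 and 16.2.

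At its named site, position 86882280, the Irf2bpl level was 23.96%, 18.3% and 11.4% in CON-LFD, 15.3%, 4.48%, 4.10% and 3.32% in DIO-HFD, 18.5%, 12.3% and 15.1% in DIO-LFD and 16.1%, 20.2%, 25.3% and 17.4% in DIO-VSG mice. All DIO-VSG mice were above all DIO-HFD mice here. At this and other sites named for a small p, a lack of overlap follows in part from the choice. The difference was 12.95 percentage points (limma adjusted p = 0.15). The Irf2bp1 block, 25 CpGs of its coding exon, had 49.2% ± 9.39 (SD, n = 4) in DIO-HFD and 60.7% ± 0.953 (SD, n = 4) in DIO-VSG mice, and replicate 1 of DIO-HFD, at 62.5%, was above the DIO-VSG mice. The difference of 11.5 percentage points (limma adjusted p = 0.110) was 15.9 without it (adjusted p = 0.00514). Irf2bp2, with 10 of its 14 tested sites within CCGG, had gene means from 47.9% to 53.6% in all 14 mice.

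The TNF-induced proteins held sites in both directions, 7 higher and 15 lower of 45 in DIO-VSG mice at an unadjusted p under 0.05. These are 15.6% and 33.3%, against 20.2% and 4.85% of all tested sites. All 15 lower sites were at Tnfaip2, a protein induced by TNF in endothelial and myeloid cells that takes part in forming membrane tubes between cells. They belong to the island in a coding exon shown above, whose 17 CpGs averaged 39.4%, 35% and 39.9% in CON-LFD, 40.6%, 45.1%, 62.4% and 60.6% in DIO-HFD, 36.8%, 35.5% and 42.6% in DIO-LFD and 30.7%, 37.4%, 41.0% and 36.9% in DIO-VSG mice. Above every other mouse were DIO-HFD replicates 2, 3 and 4, and replicate 1 was within the other groups. The differences from DIO-HFD were -14.1 percentage points in CON-LFD (limma adjusted p = 0.448), -13.9 in DIO-LFD (adjusted p = 0.385) and -15.7 in DIO-VSG mice (adjusted p = 0.0774). Without replicate 1 they were -18.0 (limma adjusted p = 0.0130), -17.7 (adjusted p = 0.0125) and -19.6 (adjusted p = 0.00249).

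About 5 kb further into Tnfaip2, a block of 6 CpGs had the opposite order. Its level was 76.2%, 74.0% and 70.8% in CON-LFD, 81.6%, 54.2%, 49.5% and 48.7% in DIO-HFD, 78.2%, 63.8% and 71.97% in DIO-LFD and 79.9%, 74.9%, 77.0% and 77.6% in DIO-VSG mice. The lowest mice were DIO-HFD replicates 2, 3 and 4 and the highest was replicate 1. The DIO-VSG minus DIO-HFD difference was 18.9 percentage points (limma adjusted p = 0.0834), and 26.6 without replicate 1 (adjusted p = 0.000208). Averaged over all 38 tested sites the gene hid both: its means were 50.4% to 61.7% over the 14 mice. Tnfaip8l1, a relative of the TNF-induced TIPE2 protein, had a block upstream, at -8506 to -8393 bp from the start, with 49.9% ± 16.6 (SD, n = 4) in DIO-HFD and 68.7% ± 1.77 (SD, n = 4) in DIO-VSG mice, a difference of 18.7 percentage points (limma adjusted p = 0.0841). DIO-HFD replicate 1, at 74.8%, was above every DIO-VSG mouse there (66.6% to 70.4%), and without it the difference was 27.03 (limma adjusted p = 0.000354).

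**Figure D4:**
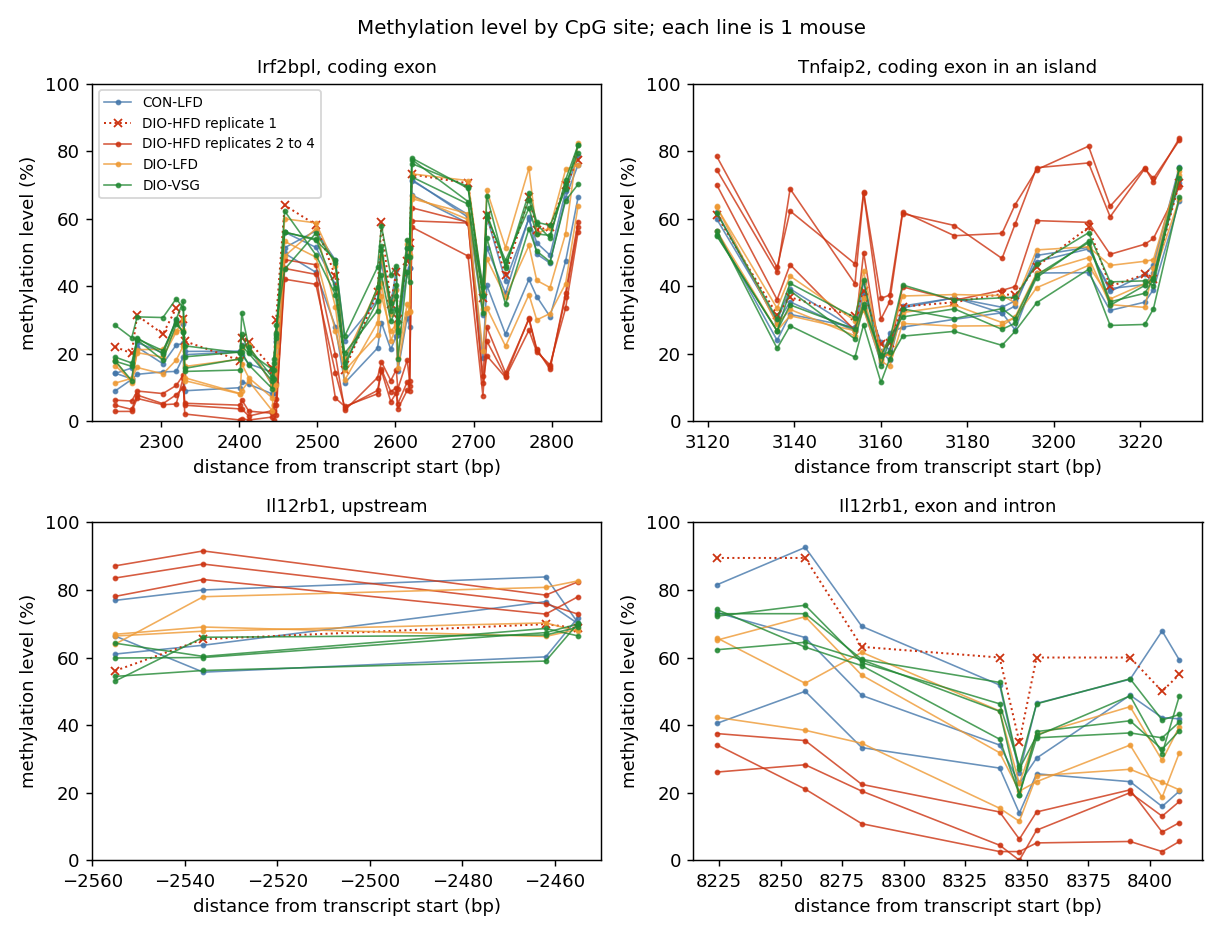
Methylation level (%) at each tested CpG of 4 blocks against the distance from the transcript start (bp); each line is 1 mouse, and DIO-HFD replicate 1 is dotted with crosses. At Irf2bpl and at the Il12rb1 exon and intron DIO-HFD replicates 2, 3 and 4 run lowest, and at the Tnfaip2 island they run highest, with replicate 1 among the other groups at Irf2bpl and Tnfaip2.

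Among the interleukin receptors, 19 of 94 tested sites were higher and 6 lower in DIO-VSG mice at an unadjusted p under 0.05, or 20.2% and 6.38%, against 20.2% and 4.85% of all tested sites. Il12rb1, the chain shared by the receptors of IL-12 and IL-23, held 7 of the higher and all 6 of the lower sites. Its block of 9 CpGs around an exon 8224 to 8412 bp into the gene had 60.9%, 45.3% and 27.8% in CON-LFD, 62.5%, 10%, 15.4% and 18.9% in DIO-HFD, 44.3%, 26.5% and 39.1% in DIO-LFD and 44.5%, 44.6%, 51.7% and 50.1% in DIO-VSG mice. The spread among CON-LFD mice was wide here, 16.6 percentage points (SD, n = 3). The DIO-VSG difference was 21.0 percentage points (limma adjusted p = 0.0892), and 32.9 without replicate 1 (adjusted p = 0.000396).

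The upstream block of Il12rb1, at -2555 to -2455 bp, had the reverse order, with 67.8%, 63.5% and 77.7% in CON-LFD, 65.0%, 84.9%, 78.0% and 79.99% in DIO-HFD, 67.6%, 76.4% and 68.05% in DIO-LFD and 63.7%, 59.9%, 64.9% and 64.3% in DIO-VSG mice. All DIO-VSG mice were below all DIO-HFD mice. The difference was -13.8 percentage points (limma adjusted p = 0.0774), and -17.8 without replicate 1 (adjusted p = 0.00143). A site still farther upstream, at 70803782 within an intron of Mast3, had 17.05% to 25.4% in CON-LFD and 29.1% to 38.2% in DIO-HFD mice without overlap (limma adjusted p = 0.611, and 0.0450 without replicate 1).

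Il3ra, the IL-3-binding chain, had 7 higher (28%) and 0 lower sites of 25 in DIO-VSG mice at an unadjusted p under 0.05, against 20.2% and 4.85% of all tested sites. Its 3 blocks lay 255 to 769 bp past the transcript start, in the 5′ UTR and the first part of an intron. The middle block had 61.3%, 56.2% and 47.6% in CON-LFD, 61.01%, 37.3%, 41.0% and 40.5% in DIO-HFD, 58.4%, 49.6% and 45.1% in DIO-LFD and 54.2%, 54.9%, 60.9% and 57.7% in DIO-VSG mice. DIO-HFD replicates 2, 3 and 4 were again the lowest, and the DIO-VSG difference of 11.96 percentage points was 17.3 without replicate 1 (limma adjusted p = 0.111 and 0.00224). The site with the smallest p in the DIO-VSG comparison was assigned to Il17rc, a chain of the IL-17 receptor, but lies in an intron of its neighbour Il17re. It had 80.95%, 68.7%, 68.3% and 72.8% in DIO-HFD and 88.9%, 86.5%, 90.8% and 82.6% in DIO-VSG mice, without overlap (limma adjusted p = 0.15), and the difference of 14.5 percentage points was 17.3 without replicate 1 (adjusted p = 0.00250). Sites of Il1r1, Il7r and Il1rapl2 lay far outside these genes and were highly methylated, with gene means of 76.2% to 95.7% over the 14 mice.

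Of the interleukins and Il4i1, 6 of 48 tested sites were higher and 5 lower in DIO-VSG mice at an unadjusted p under 0.05. At 12.5% the higher sites were fewer than among all tested sites (20.2%), and at 10.4% the lower sites were more (4.85%). Il11, a cytokine of the IL-6 family, held 4 of the higher sites. Its block from -176 to 76 bp around the transcript start had 54.05%, 55.98% and 42.0% in CON-LFD, 56.7%, 26.9%, 32.1% and 31.4% in DIO-HFD, 57.1%, 45.7% and 53.3% in DIO-LFD and 57.6%, 51.4%, 48.2% and 52.95% in DIO-VSG mice, and 3 of its 6 CpGs were within CCGG. The differences from DIO-HFD were 13.9, 15.3 and 15.8 percentage points for CON-LFD, DIO-LFD and DIO-VSG (limma adjusted p = 0.448, 0.385 and 0.0838). Without replicate 1 they were 20.5, 21.9 and 22.4 (limma adjusted p = 0.00418, 0.00280 and 0.000513).

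Il4i1 encodes an L-amino acid oxidase of macrophages and B cells that is induced by IL-4, and held 4 of the 5 lower sites. A block of 12 CpGs had 32.2%, 27.2% and 37.95% in CON-LFD, 24.2%, 43.7%, 47.6% and 44.1% in DIO-HFD, 32.1%, 38.1% and 35.5% in DIO-LFD and 30.5%, 29.4%, 28.6% and 25.6% in DIO-VSG mice. DIO-HFD replicate 1 was here the lowest mouse and the other DIO-HFD mice the highest. The DIO-VSG difference was -11.4 percentage points (limma adjusted p = 0.122), and -16.6 without replicate 1 (adjusted p = 0.000830). Part of this block overlaps the UTR of Tbc1d17, so it cannot be given to 1 gene alone. The block next to it, which overlaps that UTR as well, differed by 1.80 percentage points (limma adjusted p = 0.706), and by 3.14 without replicate 1 (adjusted p = 0.417).

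The Tnfaip2 island, the upstream Il12rb1 block and this Il4i1 block were the 3 member blocks with a lower mean level in DIO-VSG than in DIO-HFD mice, against the direction of the table as a whole. The blocks of Il1rapl1 and Il1rapl2 had higher mean levels but M differences of -0.12 and -0.17. Centring each mouse on its median over all blocks moves the M difference of each block between DIO-VSG and DIO-HFD mice by the same -0.65. It was then -1.62 at the Tnfaip2 island, -1.67 at the upstream Il12rb1 block and -1.43 at the Il4i1 block, and 0.91 at Irf2bpl, 1.14 at the Il12rb1 exon block, 0.41 at Il11 and 0.18 at the middle Il3ra block. By this shift 10 of the 27 member blocks (37.0%) went from above to below 0, as did 31.0% of all blocks. They were 3 blocks of Csf2ra, 2 of Tnfaip2 and 1 each of Il4i1, Il3ra, Irf5, Il12rb1 and Cxcr3. With centring, 0 member blocks had an adjusted p under 0.05 in the comparison of DIO-VSG with DIO-HFD, and the smallest was 0.0959.

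Csf2ra, the ligand-binding chain of the GM-CSF receptor, had the most sites of any gene, 61 tested. Of these, 9 (14.8%) were higher and 0 lower in DIO-VSG mice at an unadjusted p under 0.05, both below the shares of all tested sites, 20.2% and 4.85%. The block printed above had 57.9%, 57.8% and 53.6% in CON-LFD, 71.4%, 28.9%, 38.1% and 37.2% in DIO-HFD, 67.4%, 51.9% and 50.0% in DIO-LFD and 62.7%, 53.6%, 72.9% and 68.9% in DIO-VSG mice. The DIO-VSG difference was 20.6 percentage points (limma adjusted p = 0.0843), and 29.8 without replicate 1 (adjusted p = 0.00053). The next block, 32 CpGs of the same island, differed by 3.37 percentage points (limma adjusted p = 0.464), so the size of the difference was uneven within 1 kb. The promoter block, at -198 to -101 bp, differed by 4.51 (limma adjusted p = 0.414). Without replicate 1 these differences were 8.205 and 8.497 (limma adjusted p = 0.0315 and 0.0294). Csf3, the gene of the granulocyte factor G-CSF, was at 71.7%, 75.6% and 72.8% in CON-LFD, 84.3%, 58.3%, 66.0% and 70.3% in DIO-HFD, 79.8%, 64.3% and 78.5% in DIO-LFD and 74.8%, 76.1%, 72.02% and 73.3% in DIO-VSG mice, at a CCGG site 32 bp past its start. The groups overlapped.

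Tnfrsf1a encodes TNF receptor 1, the main receptor for TNF on most cells. At an intron site, position 125360373, its level was 74.7%, 83.1% and 73.9% in CON-LFD, 78.0%, 55.2%, 51.7% and 44.1% in DIO-HFD, 82.7%, 75.6% and 76.1% in DIO-LFD and 79.0%, 79.0%, 82.5% and 79.5% in DIO-VSG mice. All other mice were above DIO-HFD replicates 2, 3 and 4. The differences from DIO-HFD were 19.97, 20.9 and 22.7 percentage points for CON-LFD, DIO-LFD and DIO-VSG (limma adjusted p = 0.611, 0.494 and 0.15). Without replicate 1 they were 26.9, 27.8 and 29.7 (limma adjusted p = 0.0132, 0.00863 and 0.00136).

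The Tnfrsf1a mean over its 11 tested sites ranged from 51.8% to 82.98% in DIO-HFD and from 76.2% to 81.4% in DIO-VSG mice, and its 4 CCGG sites are included. Without replicate 1, all 11 sites were higher in DIO-VSG than in DIO-HFD mice at an adjusted p under 0.05 by limma, where 28.8% of all tested sites were, and in CON-LFD and DIO-LFD mice 4 and 5 of them were, where 9.67% and 12.1% were. Of the ligands, Tnf had 2 sites, both CCGG and both past the gene's end. At the nearer one the level was 81.01%, 71.7% and 63.7% in CON-LFD, 81.8%, 57.02%, 58.3% and 62.0% in DIO-HFD, 84.2%, 69.05% and 71.4% in DIO-LFD and 82.0%, 71.7%, 81.2% and 82.0% in DIO-VSG mice. The DIO-VSG difference of 14.5 percentage points (limma adjusted p = 0.193) was 20.1 without replicate 1 (adjusted p = 0.0164).

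Of the other TNF receptors, Tnfrsf11a, the receptor RANK, had 1 site in its first exon, with 6.52% to 31.7% in DIO-HFD and 25.5% to 49.5% in DIO-VSG mice. Here replicate 1 was the lowest DIO-HFD mouse, and the difference of 19.2 percentage points was 14.6 without it (limma adjusted p = 0.183 and 0.24). Tnfrsf8 (CD30), with 3 tested sites 70 to 87 bp past the start, was among the least methylated members. Its mean was 6.94%, 9.42% and 7.66% in CON-LFD, 6.00%, 12.2%, 25.1% and 21.9% in DIO-HFD, 9.33%, 10.6% and 6.93% in DIO-LFD and 3.14%, 19.4%, 5.54% and 8.01% in DIO-VSG mice, and none of its sites had an unadjusted p under 0.05. Tnfrsf12a, with 2 CCGG sites, was between 47.0% and 57.4% in every mouse.

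Of 23 tested sites of the interferon regulatory factors, 2 were higher and 2 lower in DIO-VSG mice at an unadjusted p under 0.05, or 8.70% each, against 20.2% and 4.85% of all tested sites. Both lower sites were in introns of Irf8, a transcription factor of macrophage and dendritic cell development. The site 562 bp past its start, shown above, had 22.2%, 19.5% and 25.6% in CON-LFD, 22.3%, 44.4%, 43.4% and 31.3% in DIO-HFD, 21.5%, 26.1% and 22.4% in DIO-LFD and 20%, 23.5%, 20.1% and 21.7% in DIO-VSG mice. DIO-HFD replicates 2, 3 and 4 were the highest mice, and replicate 1 lay with the other groups. The differences from DIO-HFD were -12.9, -12 and -14 percentage points (limma adjusted p = 0.611, 0.494 and 0.151), and without replicate 1 -17.2, -16.3 and -18.3 (adjusted p = 0.0257, 0.0274 and 0.00500). The transcript model Gm20388 spans this site as well. Of the 5 tested Irf8 sites, 2 were higher and 2 lower in DIO-VSG mice without replicate 1 (limma adjusted p under 0.05). Over all tested sites these shares were 28.8% and 5.62%. The Irf8 mean over its 5 tested sites differed by 0.14 percentage points between DIO-VSG and DIO-HFD with all mice.

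Irf7, the factor that drives type I interferon production, had 5 sites, of which only 2 outside the gene were variable enough to be tested. The nearer lies in a coding exon of Phrf1 and had 58.7%, 71.4% and 50.8% in CON-LFD, 80.1%, 50.7%, 41.5% and 44.4% in DIO-HFD, 67.9%, 49.4% and 57.3% in DIO-LFD and 77.8%, 77.6%, 70.2% and 75.7% in DIO-VSG mice. The DIO-VSG mice were above all DIO-LFD mice (DIO-VSG minus DIO-LFD 17.1 percentage points, limma adjusted p = 0.945), and from DIO-HFD they differed by 21.1 (adjusted p = 0.162), or 29.7 without replicate 1 (adjusted p = 0.00344). Irf1, Irf3 and Irf5 each had a tested CCGG site within 38 bp of the transcript start. There Irf1 was at 39.2% to 60.3%, Irf3 at 37.3% to 60.4% and Irf5 at 46.1% to 66.5% over the 14 mice, with overlapping groups. Ifngr2, a chain of the interferon gamma receptor, was at 24.02% to 47.2%, also with overlap.

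**Figure D5:**
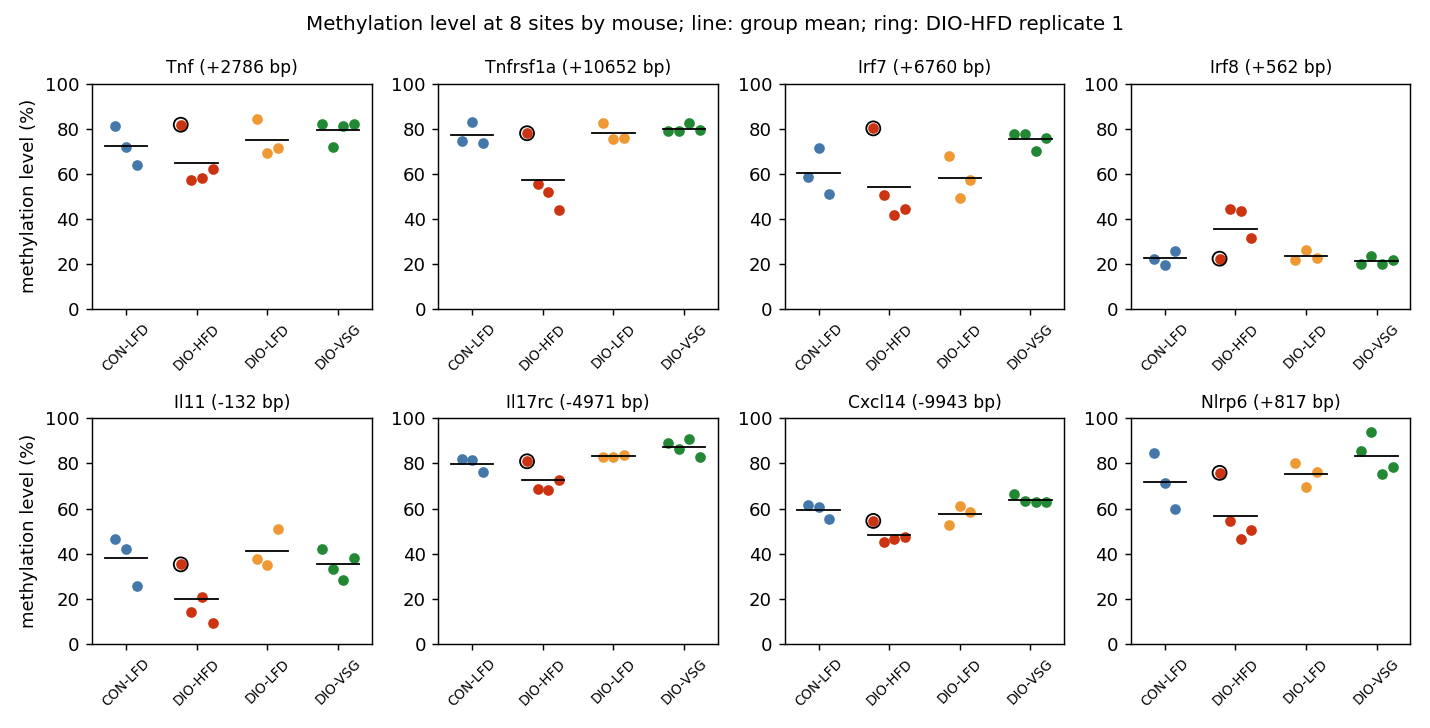
Methylation level (%) of each mouse at 8 single sites, with the distance from the transcript start in the title; lines are group means and the ring marks DIO-HFD replicate 1. DIO-HFD replicates 2, 3 and 4 are the lowest mice at 6 of the sites and the highest at Irf8, while at Irf7 they overlap other groups.

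Nlrp6, an inflammasome sensor best known from the intestine, had 4 tested CpGs in a coding exon, and all 4 were higher in DIO-VSG mice at an unadjusted p under 0.05, where 20.2% of all tested sites were. They lie 796 to 819 bp past the transcript start, so close together that they are treated here as 1 result. Their mean was 55.5%, 46.8% and 34.7% in CON-LFD, 52.0%, 33.7%, 27.3% and 27.5% in DIO-HFD, 50.5%, 47.8% and 42.0% in DIO-LFD and 56.9%, 58.9%, 48.0% and 50.6% in DIO-VSG mice. The difference was 18.5 percentage points (M 1.39 ± 0.42 SE, limma adjusted p = 0.0774), and 24.1 without replicate 1 (adjusted p = 0.000786). The other Nlrp genes had 1 or 2 sites each. One assigned to Nlrp4g, at a CCGG beyond the gene's end and 30367 bp past its start, had the smallest p of the CON-LFD comparison, with 100% in all 3 CON-LFD and 87.0% to 97.8% in DIO-HFD mice (limma adjusted p = 0.611, and 0.0148 without replicate 1).

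Chemokines had 13 sites, 9 of them tested, and 1 (11.1%) was higher in DIO-VSG mice, below the 20.2% of all tested sites. It lies upstream of Cxcl14, at -9943 bp, a chemokine of epithelial and stromal cells, and had 61.4%, 60.6% and 55.4% in CON-LFD, 54.5%, 45.1%, 46.5% and 47.4% in DIO-HFD, 52.5%, 61.2% and 58.5% in DIO-LFD and 66.6%, 63.2%, 63.1% and 62.8% in DIO-VSG mice. The DIO-VSG mice were above all other mice. The difference from DIO-HFD was 15.5 percentage points (limma adjusted p = 0.15), and 17.6 without replicate 1 (adjusted p = 0.00550). Averaged over its 5 tested sites, Cxcl14 was between 45.9% and 52.9% in all mice. Cxcl12, the ligand of CXCR4, had 1 tested site, in its UTR, at 54.1% to 84.9% in DIO-HFD and 63.2% to 79.4% in DIO-VSG mice.

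Of the chemokine receptors, 3 of 24 tested sites (12.5%) were higher in DIO-VSG mice and 0 lower, where all tested sites gave 20.2% and 4.85%. Ccr10, the receptor of CCL27 and CCL28, held 2 of them, and its mean over 5 sites was 48.3%, 50.8% and 49.4% in CON-LFD, 57.5%, 37.2%, 30.6% and 37.2% in DIO-HFD, 49.5%, 49.9% and 46.6% in DIO-LFD and 55.5%, 47.5%, 51.7% and 52.9% in DIO-VSG mice. Replicates 2, 3 and 4 of DIO-HFD were the lowest mice. Ccr1, with 8 sites beyond the gene's end and 41517 to 44720 bp past its start, was between 57.1% and 64.0% in every mouse. Of the interferon and interferon receptor genes 1 of 6 tested sites (16.7%) was higher, near Ifna9, and the single tested Toll-like receptor site, far upstream of Tlr3, had at least 82.6% in every mouse.

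DIO-VSG and DIO-LFD mice ate the same diet and differed by the operation. By limma, 0 member sites had an adjusted p under 0.05, where all sites gave 0.00305%, and 0 of the blocks (0%). At an unadjusted p under 0.05, 4 member sites were higher and 3 lower in DIO-VSG mice, or 0.891% and 0.668% of the tested member sites, against 2.42% and 1.55% of all sites. The median difference was 1.79 percentage points, against 1.71 for all sites. The smallest p was at a CCGG site assigned to Tnfrsf25 that lies in the UTR of Espn, with 75.3%, 60.0% and 78.7% in DIO-LFD and 83.9%, 87.5%, 81.1% and 87.7% in DIO-VSG mice (limma adjusted p = 0.945). At a Csf2ra coding site, position 61225523, the DIO-LFD mice had 24%, 31.4% and 27.03% and the DIO-VSG mice 20.3%, 10.6%, 12.9% and 14.6% (limma adjusted p = 0.945). The groups did not overlap at either site, which follows in part from the choice of sites by small p. The share of all single sites without overlap was not counted. The groups also did not overlap at 3 of the 27 member blocks: the DIO-VSG mice were higher at the Il12rb1 exon block, with DIO-LFD mice at 26.5% to 44.3% and DIO-VSG mice at 44.5% to 51.7%. They were lower at the upstream Il12rb1 block, at 59.9% to 64.9% against 67.6% to 76.4%, and at the Il4i1 block of 12 CpGs, at 25.6% to 30.5% against 32.1% to 38.1%. Each of these 3 blocks had a limma adjusted p of 0.917. Of all blocks, 5.2% were higher and 3.39% lower in DIO-VSG than in DIO-LFD mice without overlap, and at the other member blocks the groups overlapped.

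Genes that act downstream of the members were examined as lists. Of 42 genes of NF-kB and Toll-like receptor signalling, 18 had 53 tested sites, and 0 passed an adjusted p of 0.05. At an unadjusted p under 0.05, 10 were higher and 2 lower in DIO-VSG than in DIO-HFD mice, or 18.9% and 3.77%, where all tested sites gave 20.2% and 4.85%. Of 30 JAK-STAT genes, 18 had 158 tested sites, with 35 higher and 14 lower (22.2% and 8.86%). Of 24 inflammasome and nucleic acid sensing genes, 7 had 22 tested sites, with 11 higher and 1 lower (50% and 4.55%). Their median differences were 5.24, 5.44 and 10.8 percentage points, beside 5.40 for all tested sites.

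Markers of the cells in the tissue were given the same description. Of 12 adipocyte genes 7 had 23 tested sites, whose mean was 63.9% to 72.3% in CON-LFD mice, 60.5% to 65.1% in DIO-HFD replicates 2, 3 and 4, 70.3% in replicate 1, 66.8% to 69.4% in DIO-LFD and 71.0% to 73.3% in DIO-VSG mice. At an unadjusted p under 0.05, 9 of these sites (39.1%) were higher and 1 (4.35%) lower in DIO-VSG than in DIO-HFD mice. Pparg, a defining adipocyte regulator, was at 2.90% on average at its 1 site, 117 bp past the start, and Adipoq at 92.9% at a CCGG site at -4943 bp. T cell genes, 20 sites of 5 of 12 genes, had a mean of 65.7% to 69.3% in CON-LFD mice, 68.8% to 69.8% in DIO-HFD replicates 2, 3 and 4, 64.4% in replicate 1, 63.8% to 68.9% in DIO-LFD and 63.9% to 65.8% in DIO-VSG mice. The mean of the T cell sites was thus lower in DIO-VSG mice than in these 3 DIO-HFD mice, but the median difference from DIO-HFD over the sites was 3.02 percentage points, with 2 sites (10%) higher and 5 (25%) lower at an unadjusted p under 0.05, where all tested sites gave 20.2% and 4.85%. B cell genes, 3 sites of 1 of 7 genes, had 58.4% to 66.7% in CON-LFD, 71.5% to 75.02% in DIO-HFD replicates 2, 3 and 4, 62.0% in replicate 1, 61.1% to 72.1% in DIO-LFD and 61.2% to 63.7% in DIO-VSG mice. Adipocyte, T cell and B cell levels of CON-LFD or DIO-LFD mice thus reached into the range of DIO-HFD replicates 2, 3 and 4. Fibroblast genes (25 sites) had 50.8% to 52.8% in those 3 mice, 64.0% in replicate 1 and 56.6% to 64.7% in the other groups. Endothelial genes (7 sites) had 48.9% to 51.8%, 61.9% and 57.4% to 68.1%, and mammary epithelial genes (28 sites) 64.2% to 68.1%, 75.7% and 65.2% to 74.8%. The lowest mammary epithelial level of a CON-LFD mouse, 65.2%, was also within the range of DIO-HFD replicates 2, 3 and 4. By the same count 7 sites (28%) were higher and 0 lower for fibroblasts, 3 (42.9%) and 0 for endothelium, 3 (10.7%) and 3 (10.7%) for mammary epithelium, and 0 and 1 for B cells. Macrophage genes had 1 tested site of 12 genes. The part of cell composition in the values above was not tested.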

How the data were processed

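The authors aligned RRBS reads to mm10 with Bismark, per the labels and the study's methods, and made methylation calls with methylKit. They left out 1 CON-LFD and 1 DIO-LFD mouse and deposited, for 14 mice, the methylation level of each site as a fraction from 0 to 1, with no read counts. All 14 mouse columns were matched to samples by mouse number. Gene assignments are those of the table; gene spans came from GENCODE and sequences from RefSeq GRCm38. In this genome 12 of 75761 sites were not at a CpG and were kept. Levels b became M = log2((b + 0.01)/(1 − b + 0.01)) at the 65610 sites whose standard deviation reached 0.05. A single limma 3.58.1 model (R 4.3.3) held the 4 groups, with Benjamini-Hochberg adjustment over all tested sites and a threshold of 0.05; all p-values are two-sided. They set a group difference against the spread between mice, taken as 1 value per site for the 4 groups and moderated across sites. Figures used Matplotlib 3.10.9 in Python 3.11.15.

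The fit was tested on simulated data for DIO-VSG against DIO-HFD at 65610 sites. With 200 sites changed by 2 in M it recovered 52 with 2 false calls, and with 200 changed by 4 it recovered 158 with 8 false calls. The simulated noise was independent between sites and mice, with the same spread in every group and no outlying mouse. The deposited levels differ from this, so the false calls speak only for such simulated data. Changes smaller than 2 were not simulated.

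The members and lists were chosen with earlier results of these data known. The text names, per comparison, the 6 member sites with the smallest p (1 per gene), listed genes of inflamed adipose tissue by the tested site nearest to the transcript start, and per gene group the gene with the most tested sites; not all are printed, and other genes and the blocks were picked once their values had been seen. Alternatives were another offset, untransformed levels, moderation with a trend and robust, only the groups compared, mice centred on their median, other filters, autosomes, genes as units, a replicate block and leaving out each mouse, and sites outside CCGG, blocks and sites within the named gene were added after seeing the data.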

Additional observations from a re-analysis of the deposited data

Results flagged for a closer look

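In groups of 4 mice, a mouse was noted where its gap to the next mouse, as a share of the group's range, exceeded Dixon's critical value, which chance gives in about 5% of groups. This was the case in 12 of 90 groups examined, where chance would give about 4.5, and the groups share mice and sites.

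DIO-HFD replicate 1 was the mouse in 5 of them. Its gap was 0.834 of the range for the mean of the tested member sites, 0.904 at the Irf2bpl site 86882280, 0.855 at the Irf2bp1 site 19005072, 0.899 for the Il12rb1 mean and 0.871 for the Irf2bpl mean. DIO-HFD replicate 4 was low at the Tnfrsf25 site 152114525, a CCGG in an exon of Plekhg5, with a gap of 0.904.

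The other 6 were in DIO-VSG mice. Replicate 3 was low at the Nlrp4g site 124379196 (0.863) and high at the Tnfrsf1a intron site (0.869). Replicate 1 was high at the Cxcl14 site 56306493 (0.906). Replicate 2 was low at the Tnf site 35199219 (0.929), the Cxcl12 site 117177640 (0.934) and the Tlr3 site (1). At the Tlr3 site replicate 2 had 94.7% and the other DIO-VSG mice were tied at 100%, so that gap follows from the ceiling.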

How the results depend on the processing

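Comparisons are listed in the order CON-LFD, DIO-LFD and DIO-VSG against DIO-HFD, then DIO-VSG against DIO-LFD. With an adjusted p under 0.05 by limma, 0 member sites were called under every alternative that kept all mice. Leaving out single mice gave 0 to 86, 0 to 93, 0 to 189 and 0 to 0 sites, all calls coming without DIO-HFD replicate 1. At an unadjusted p under 0.05 (49, 44, 134 and 7 sites), leaving out mice gave 14 to 187, 18 to 200, 78 to 236 and 4 to 26, the highest each time without DIO-HFD replicate 1. Sites with an SD of at least 0.1 gave 15, 12, 67 and 2, genes as units 3, 4, 15 and 3, and only the groups compared 14, 15, 121 and 21. For DIO-VSG against DIO-LFD, centring each mouse gave 15, sites outside CCGG 3 and sites within the named gene 3.

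The median difference (percentage points) ranged from 2.90 to 7.32, 2.72 to 7.42, 4.63 to 8.06 and 0.63 to 3.60 as mice were left out. It was 11.6, 10.2, 15.98 and 6.93 at an SD of at least 0.1, and -0.65, -0.35, -2.22 and -1.12 with centring. Of 849 alternatives for 37 named results, 815 kept their direction and side of the threshold, 19 passed it only without DIO-HFD replicate 1, and 15 reversed, all in DIO-VSG minus DIO-HFD. With centring, M was -0.22 at Il4, -0.098 at Cxcl12, -0.31 at Irf1, -0.25 at Irf3 and -0.25 at Csf3. On the level scale Il6ra was at 0.000524. Without single mice, M ran from -0.067 to 0.80 at Il4, -0.30 to 0.29 at Il6ra, -0.22 to 0.063 at Irf5, -0.021 to 0.60 at Csf3 and -0.20 to 0.14 at Ifngr2. The cause was not tested.

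Deviations of same-numbered mice correlated weakly at most (r from -0.080 to 0.20 over 19 pairs), and the numbers were not taken as pairs. The highest r were 0.20 and 0.15, for replicate 1 of DIO-HFD with that of DIO-LFD and of CON-LFD. Replicate 1 also had the highest member mean in DIO-HFD (60.4%), DIO-LFD (58.6%) and CON-LFD (58.1%), while in DIO-VSG replicate 4 did (58.2%). With the replicate block, 0 member sites passed an adjusted p of 0.05 in each comparison, and counts at an unadjusted p stayed within 1.5 times. The levels carry no read depth, so counting error could not be weighed.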
